A study of Mus musculus with 9 samples.

Results

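The genes described here encode the nuclear subunits of respiratory complexes I to IV and of the ATP synthase (complex V), with assembly factors of complexes I and II that carry the same symbol stems. Members were the array rows with exactly 1 gene symbol that begins with Nduf, Uqcr, Cox4 to Cox8, Atp5 or Sdha to Sdhd, apart from Cox6b1, Cox6b2 and Cox8c, and the rows of a gene were averaged. This gave 90 genes from 116 rows, out of 19935 genes measured. They comprised 34 subunits of complex I, 4 of complex II, 8 of complex III, 16 of complex IV, 17 of complex V and 11 assembly factors. Ndufa4 and Ndufa4l2 were counted with complex IV, where the Ndufa4 protein is now placed despite its name. A further 6 rows carried several symbols, so that Cox7c and Ndufb4 are not analysed here.

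Complex I takes electrons from NADH and complex II takes them from succinate. Ubiquinone carries them on to complex III and cytochrome c to complex IV, which hands them to oxygen, while complexes I, III and IV pump protons across the inner mitochondrial membrane. The ATP synthase lets the protons back and makes ATP. In the testis, complex IV and cytochrome c are known for subunit isoforms of their own in germ cells.

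RNA came from whole testis of untreated male Swiss albino mice, described as an inbred line, at 8, 16 and 24 days of age, with 3 arrays per age and 9 in all. The submitters call the 3 arrays of an age biological replicates and name the comparisons of 16 with 8, 24 with 16 and 24 with 8 days, in the first wave of spermatogenesis, when the most advanced germ cells present change with age. The labels do not say whether an array holds RNA of 1 animal or of a pool, so the spread between arrays may be partly technical. Arrays are called replicate 1 or 2 by the number in their labels, and the unnumbered array of each age is called replicate 3.

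Each value is a log2 value relative to the gene's own median array, so that 0 is the median array and -1 is 2-fold below it, if the base of the logarithm, which is not stated, is 2. Such values show differences between ages but no level and no detection limit, so no gene is set against another by level. Blank cells were read as 0, 136 of them in the rows of the members, so a printed 0.00 may be a blank cell. The number of arrays limits the precision. Changes are differences of age means on this log2 scale with the moderated standard error of limma, a linear model fitted to all 19935 genes, and a gene was called where its adjusted p was under 0.05. A gene that was not called may still differ between ages. In whole testis, fewer cells of a type and less RNA per cell cannot be told apart.

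Germ cell markers followed the ages in the labels. All 6 spermatocyte markers were higher at 16 than at 8 days, with a median change of 3.29, and all 6 spermatid markers were higher at 24 than at 16 days, with a median change of 4.73. The 6 spermatogonial, 5 Sertoli and 5 Leydig markers measured were all lower at 24 than at 8 days. So were all 4 myoid and 3 endothelial markers. Only 2 of 4 macrophage, 1 of 6 skeletal muscle and 2 of 5 adipose markers were called lower. Between these ages 35.2% of all genes were called lower, so these partial counts do not set those 3 types apart from all genes. The array medians of the spermatocyte markers lay between -3.27 and -3.11 at 8 days, -0.01 and 0.31 at 16 days and 0.34 and 0.62 at 24 days, and those of the spermatid markers between -0.26 and 0.00 at 8 days, -0.26 and 0.00 at 16 days and 4.05 and 5.11 at 24 days. Their part in the changes of the respiratory genes was not tested. Replicate 1 of 8 days and replicate 2 of 16 days stood apart, with a median of 0.17 in each over 1027 olfactory receptor genes, against -0.05 to 0.03 in the other 7 arrays. In replicate 1 of 8 days the 90 respiratory genes also had a median of -0.16, against -0.02 to 0.06 in the other 8 arrays.

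Between 24 and 8 days, the respiratory genes split in both directions. At 24 days 26 of the 90 (28.9%) were higher and 18 (20.0%) were lower than at 8 days, where 19.2% of all genes were called higher and 35.2% were called lower. The median change of the 90 was 0.07, against -0.18 for all genes. Without 8-day replicate 1 there were 21 higher and 23 lower, and without both arrays that stood apart there were 23 higher and 26 lower. How many of all genes were called without these arrays was not counted, so these counts cannot be set against all genes.

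Complex by complex, 13 of 34 subunits of complex I were higher at 24 than at 8 days and 5 were lower, with a median change of 0.20. In complex III 4 of 8 were higher and 2 were lower, with a median of 0.28, and in complex IV 4 of 16 were higher and 3 were lower, with a median of -0.04. Of the 17 ATP synthase subunits 1 (5.88%) was higher and 5 (29.4%) were lower, with a median of -0.15. Of all genes 19.2% were higher and 35.2% were lower, with a median of -0.18. The lower share of complex V was thus not above that of all genes, and its median was close to theirs. Its higher share was below that of all genes. None of the 4 complex II subunits was called by limma, and none had an unadjusted p under 0.05 between these ages. Setting the all-gene median of every array to 0 moved each change between 24 and 8 days up by 0.12, which gave medians of 0.32, 0.13, 0.40, 0.08 and -0.03 for complexes I to V, so that the sign of complex IV turned.

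The medians of complexes I and V moved with single 8-day arrays. That of complex I was 0.09 without 8-day replicate 1 and 0.30 without 8-day replicate 2, and that of complex V was -0.21 and -0.07 without those arrays. Within an array, where a shift of the whole array cancels, the complex I median minus the complex V median was 0.12, 0.08 and 0.05 in the 24-day arrays, against -0.19, -0.14 and -0.18 in the 8-day arrays. The 24-day arrays lay above the 8-day arrays without overlap in this difference, as they did for complex III minus complex V, which was 0.07, 0.07 and 0.14 at 24 days and -0.21, -0.18 and -0.19 at 8 days. The same held for complex IV minus complex V, at 0.07, 0.00 and -0.02 in the 24-day arrays against -0.06, -0.18 and -0.14 in the 8-day arrays, and for complex II minus complex V, at -0.06, -0.03 and 0.02 against -0.06, -0.19 and -0.15, where the nearest arrays of both ages round to -0.06. Each difference subtracts the same complex V median, so they are not separate results. The complex IV median was 0.00 in 24-day replicates 1 and 2, and that of complex V was 0.00 in 24-day replicate 2. In the 16-day arrays, complex II minus complex V was 0.08, 0.16 and 0.07, above the 24-day arrays.

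**Figure D1:**
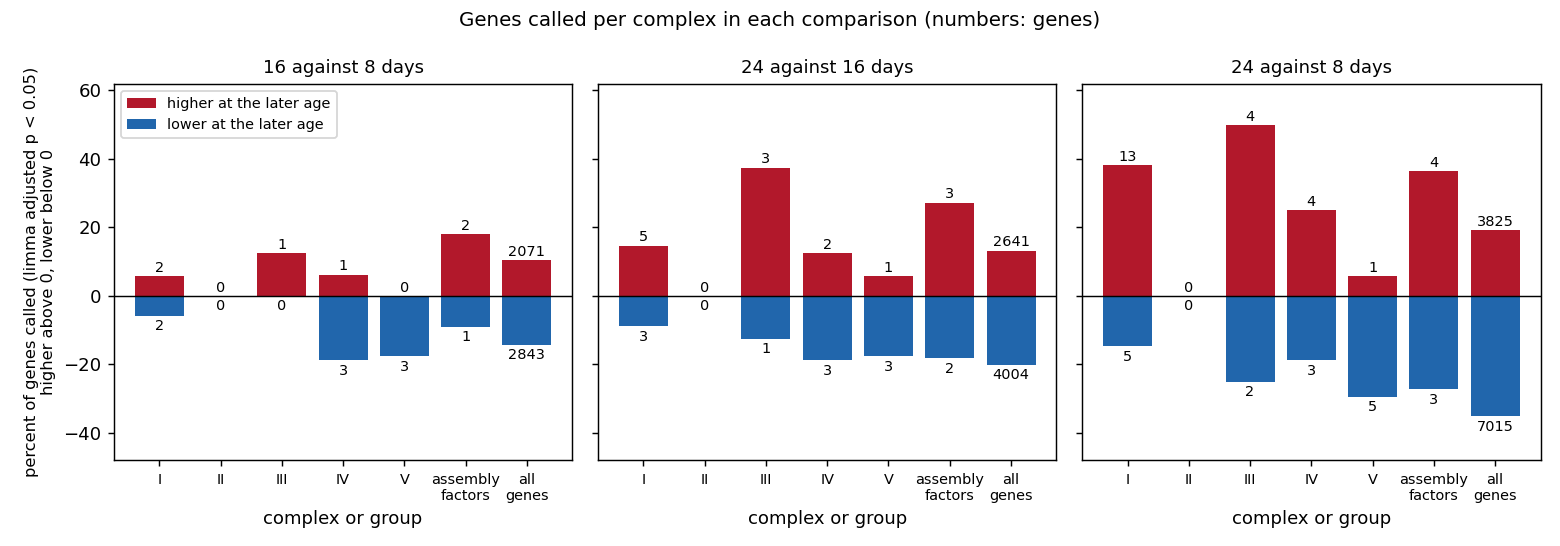
Percent of the genes of each complex, of the assembly factors and of all genes that were called higher (red, above 0) or lower (blue, below 0) at the later age, in the 3 comparisons, with the number of genes on each bar. At 24 against 8 days, 13 complex I and 4 complex III subunits were higher, against 1 ATP synthase subunit, and no complex II subunit was called. Of all genes, 19.2% were called higher and 35.2% lower between these ages.

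**Figure D2:**
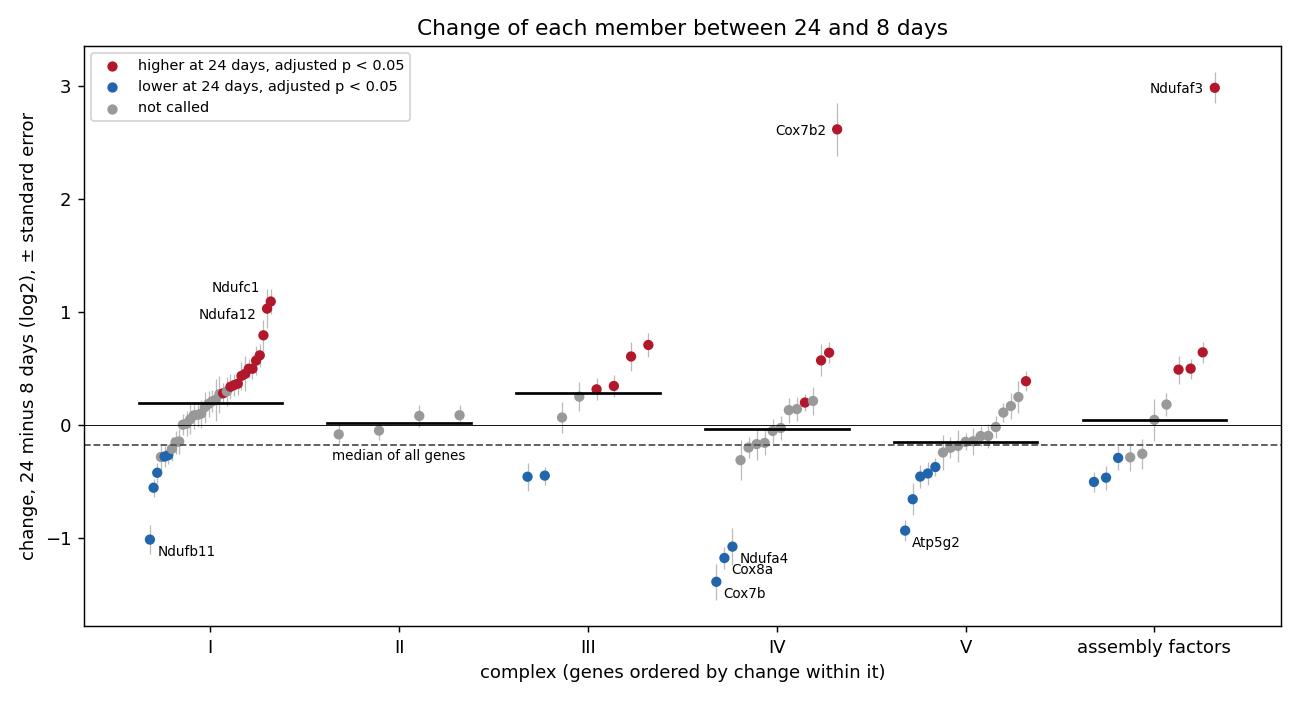
Change of each of the 90 genes between 24 and 8 days (log2, 24 minus 8 days, with the standard error), ordered by change within each complex. Thick bars are the medians of the complexes and the dashed line is the median of all genes, -0.18. Ndufaf3 and Cox7b2 stand above all other members, at 2.99 and 2.62.

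Between 16 and 8 days 6 members were higher and 9 were lower at 16 days, where 10.4% of all genes were called higher and 14.3% lower. Between 24 and 16 days 14 were higher and 12 were lower at 24 days, where 13.2% of all genes were called higher and 20.1% lower. With all-gene medians set to 0 there were 6 higher and 4 lower calls in the first step and 15 higher and 5 lower in the second. The members higher in both steps were Ndufaf2, Ndufaf3 and Ndufc1, and those lower in both were Cox7b, Cox8a and Ndufb11. No other member was called in both steps, so none was called in opposite directions. Without any 1 array, both calls were kept for Ndufaf3, Ndufc1 and Cox8a, but not for Ndufaf2, Cox7b and Ndufb11. The shares of all genes called in both steps, or after setting all-gene medians to 0, were not counted. The difference between the steps was itself called for 1 member, Ndufaf3, against 5.38% of all genes.

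Calls within a single step rested on few arrays. How many of all genes were called without each array was not counted. Between 16 and 8 days, the calls kept without any 1 array were Cox7b2, Ndufaf3 and Ndufc1 (higher) and Cox7b, Cox8a and Ndufs8 (lower). There were 3 lower calls in place of 9 without 16-day replicate 1, without 16-day replicate 2 or without 8-day replicate 2, and 5 without 8-day replicate 3. Between 24 and 16 days, Cox5a, Ndufaf3 and Ndufc1 (higher) and Atp5g2, Cox8a and Ndufb11 (lower) were kept. There were 3 higher calls in place of 14 without 16-day replicate 1, 7 without 24-day replicate 1, and 9 without 16-day replicate 3 or 24-day replicate 3, and 4, 3, 6 and 6 lower calls in place of 12 without those arrays. With blank cells left missing, the call of Ndufs8 in the first step and that of Cox5a in the second were lost.

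Between 24 and 8 days, 21 of the 26 higher and 15 of the 18 lower calls were kept without any 1 array. The higher calls that were not are Ndufa8, Ndufs4, Ndufs5, Uqcrc2 and Cox6c, each lost without 8-day replicate 1 and without at least 2 other arrays, with adjusted p up to 0.0872, 0.12, 0.0818, 0.078 and 0.132. The lower calls that were not are Ndufa10, lost without 24-day replicate 1 (adjusted p = 0.0557), Ndufa3, lost without 8-day or 24-day replicate 1 or 2 (up to 0.0898), and Ndufaf5, lost without any 1 of 7 arrays (up to 0.141).

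**Figure D3:**
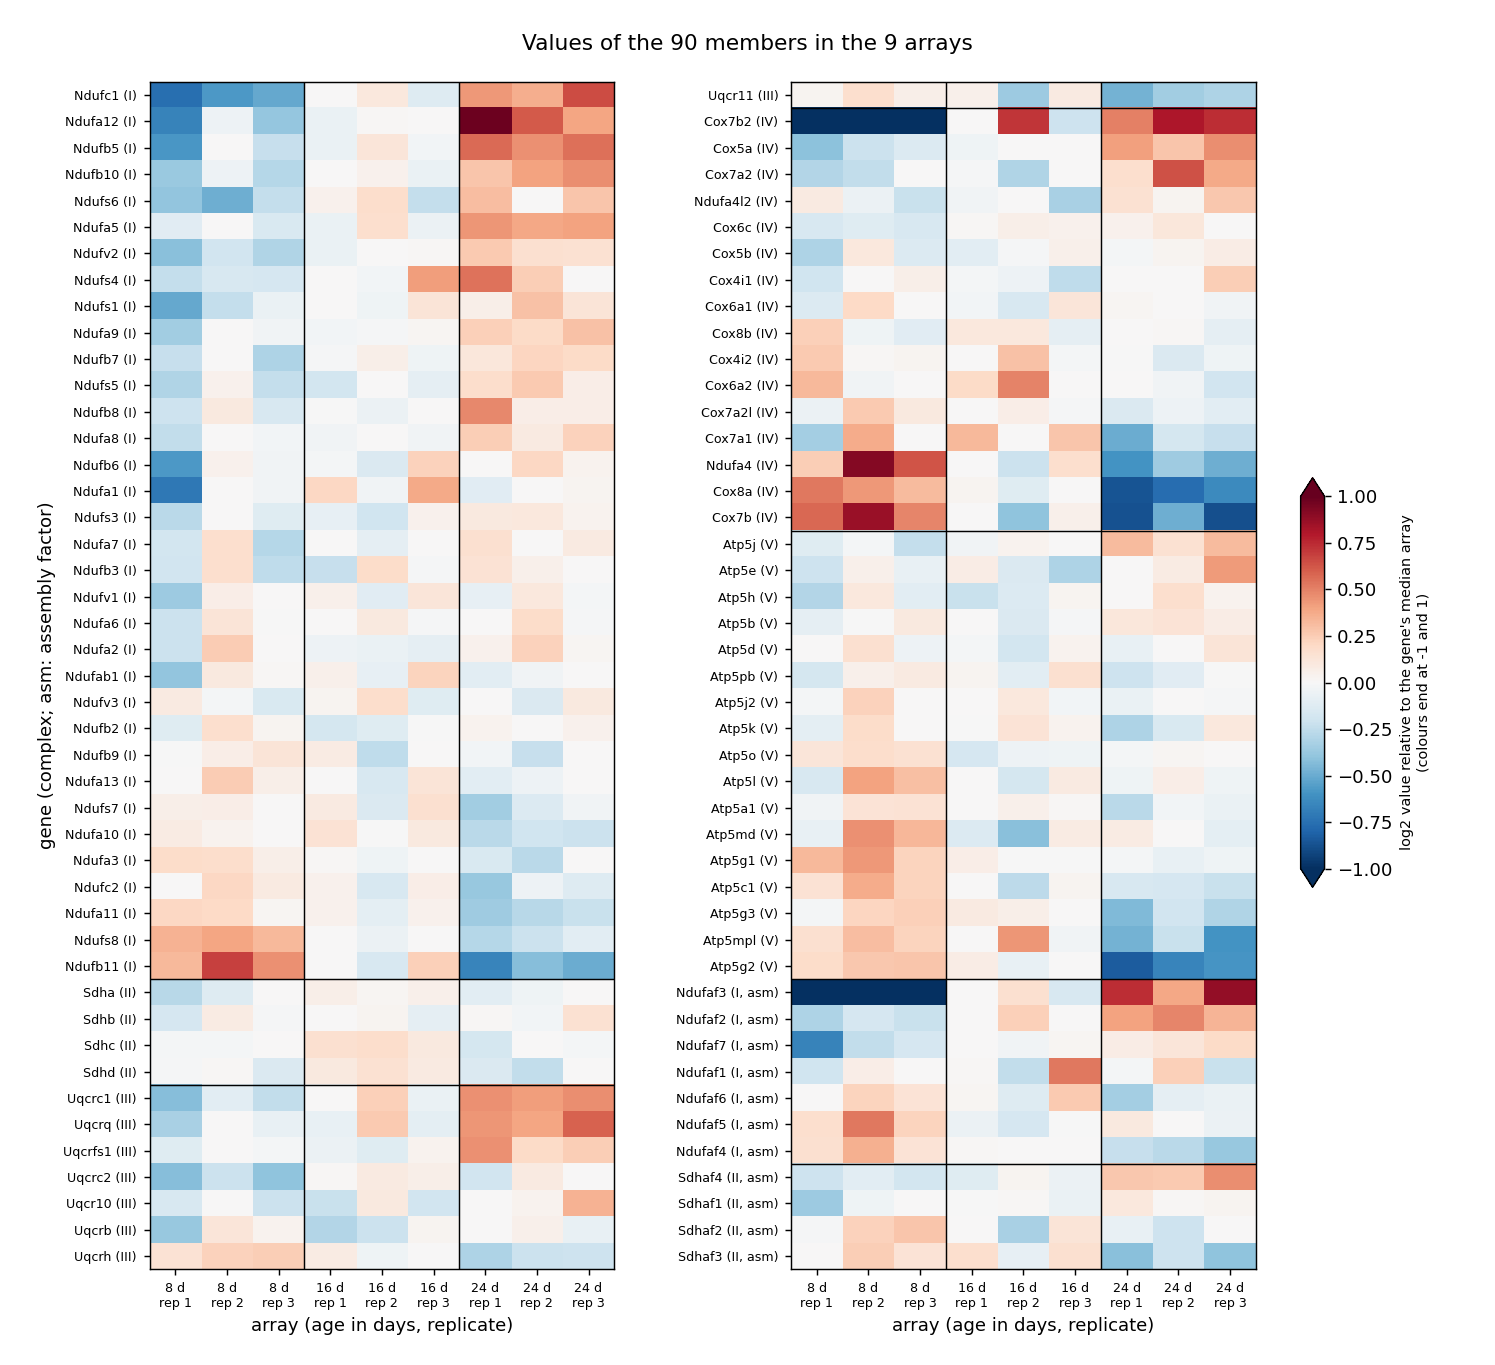
Values of the 90 members (rows, grouped by complex and ordered by change within it) in the 9 arrays (columns, by age), as log2 relative to the gene's median array; red is above and blue below the median, and colours end at -1 and 1. The 8-day arrays of Cox7b2 and Ndufaf3 lie below the scale, from -2.40 to -1.58.

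Complex I has an arm in the matrix, where NADH is oxidised along a chain of iron-sulphur clusters, and an arm in the membrane, which pumps protons. Of its 6 core subunits measured, Ndufv2 and Ndufs1 were higher at 24 than at 8 days and Ndufs8 was lower. Ndufv2, which binds an iron-sulphur cluster beside the NADH site, had values of -0.42, -0.19 and -0.30 at 8 days, -0.07, 0.00 and 0.01 at 16 days and 0.27, 0.16 and 0.15 at 24 days. The 3 ages did not overlap, and the change from 8 to 24 days was 0.50 ± 0.09 (limma adjusted p = 0.000701). Ndufs8, a core subunit with iron-sulphur clusters on the path to ubiquinone, went the other way. Its values were 0.35, 0.40 and 0.33 at 8 days, 0.00, -0.06 and 0.00 at 16 days and -0.28, -0.21 and -0.11 at 24 days, again without overlap, and it fell by 0.56 ± 0.08 (adjusted p = 0.000189). Its values of 0.00 at 16 days were the 2 blank cells of its row, read as 0. Ndufs1, which carries further iron-sulphur clusters, had 0.06, 0.29 and 0.13 at 24 days and -0.51, -0.24 and -0.07 at 8 days, a change of 0.43 ± 0.12 (adjusted p = 0.0117). The other core subunits were not called between 24 and 8 days: Ndufv1, which holds the flavin, at 0.10 ± 0.12, Ndufs3 at 0.21 ± 0.10 and Ndufs7 at -0.21 ± 0.11.

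The accessory subunits surround the core and stabilise it. Of 28 measured, 11 (39.3%) were higher and 4 (14.3%) were lower at 24 than at 8 days, against 19.2% and 35.2% of all genes. The largest changes were those of Ndufc1, a small subunit of the membrane arm, and Ndufa12, a subunit of the matrix arm. Ndufc1 had values of -0.76, -0.57 and -0.51 at 8 days, 0.00, 0.11 and -0.13 at 16 days and 0.43, 0.36 and 0.65 at 24 days. The ages did not overlap, and both steps were called, with changes of 0.60 ± 0.11 from 8 to 16 days (adjusted p = 0.0031) and 0.49 ± 0.11 from 16 to 24 days (adjusted p = 0.00869), which makes the 24-day mean 2.13-fold that of 8 days. Ndufa12 had -0.67, -0.05 and -0.38 at 8 days, -0.07, 0.01 and 0.00 at 16 days and 0.98, 0.61 and 0.40 at 24 days. Its 24-day arrays lay above all others, while the 8- and 16-day arrays overlapped, and it changed by 1.03 ± 0.17 from 8 to 24 days (adjusted p = 0.000597).

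Among the other membrane arm subunits, Ndufb5 was higher at 24 days, with 0.56, 0.45 and 0.55, against -0.58, 0.00 and -0.23 at 8 days. The change was 0.79 ± 0.14 (adjusted p = 0.000632), and Ndufb10 changed by 0.62 ± 0.10 (adjusted p = 0.000534). Ndufs6, Ndufa5, Ndufs4, Ndufa9, Ndufb7, Ndufs5 and Ndufa8 completed the accessory subunits that were higher, with changes of 0.28 to 0.57. The lower ones were Ndufb11, Ndufa11, Ndufa3 and Ndufa10, with changes of -1.02 to -0.27, and Ndufb11 is described with the X-linked genes. The 13 accessory subunits called in no comparison included Ndufab1, the acyl carrier protein, at 0.05 ± 0.13 between 24 and 8 days.

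The promoter of Ndufc1 is shown because it is the complex I subunit with the largest change. It is the RefSeq window from 250 bases before to 50 after the annotated start (GRCm38.p6, chr3:51408906-51409205, minus strand, written 5′ to 3′). Capitals mark a match to AAGATGGC, a YY1 motif, which starts 22 bases after the annotated start on the gene's own strand.
Ndufc1: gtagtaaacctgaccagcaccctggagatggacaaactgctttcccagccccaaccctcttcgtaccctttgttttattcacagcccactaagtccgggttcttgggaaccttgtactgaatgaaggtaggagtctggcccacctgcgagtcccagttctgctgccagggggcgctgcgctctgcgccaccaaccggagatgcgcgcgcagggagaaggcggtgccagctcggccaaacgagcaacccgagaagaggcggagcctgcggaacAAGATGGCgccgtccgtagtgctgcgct

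Assembly factors of complex I do not stay in the finished enzyme. Of the 7 measured, Ndufaf3, Ndufaf2 and Ndufaf7 were higher and Ndufaf4 and Ndufaf5 were lower at 24 than at 8 days. Ndufaf3, which acts with Ndufaf4 early in the assembly of the matrix arm, had the largest change of all 90 members. Its values were -2.40, -2.19 and -2.36 at 8 days, 0.00, 0.16 and -0.16 at 16 days and 0.74, 0.39 and 0.88 at 24 days, so that no 2 ages overlapped. It changed by 2.32 ± 0.14 from 8 to 16 days (adjusted p = 2.24e-06) and by 0.67 ± 0.14 from 16 to 24 days (adjusted p = 0.00564), and the first step was the larger one (adjusted p of the difference = 0.00252). Its partner Ndufaf4 had -0.23, -0.27 and -0.38 at 24 days, against 0.16, 0.35 and 0.14 at 8 days, and fell by 0.51 ± 0.09 (adjusted p = 0.000704). These partners changed in opposite directions, each without overlap between ages.

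Ndufaf2 is related in sequence to the subunit Ndufa12 and acts late in assembly. It had -0.31, -0.17 and -0.22 at 8 days, 0.00, 0.24 and 0.00 at 16 days and 0.40, 0.49 and 0.34 at 24 days, a change of 0.64 ± 0.09 from 8 to 24 days (adjusted p = 0.000238). Its values of 0.00 at 16 days were the 2 blank cells of its row, read as 0. Ndufaf7, a mitochondrial methyltransferase, changed by 0.49 ± 0.12 (adjusted p = 0.00685). Ndufaf5, which modifies a core subunit, fell by 0.29 ± 0.11 (adjusted p = 0.0433, lost without any 1 of 7 arrays), while Ndufaf1 and Ndufaf6 were not called.

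Complex II is the succinate dehydrogenase of the citric acid cycle and the complex whose subunits are all nuclear. Its 4 subunits were called in no comparison by limma, and at an unadjusted p under 0.05 the count was 2, Sdhc and Sdhd, both lower at 24 than at 16 days. Sdha, the flavoprotein, had -0.11, -0.04 and 0.00 at 24 days and -0.28, -0.13 and 0.00 at 8 days, which overlapped, with a change of 0.09 ± 0.09. Sdhb, the iron-sulphur subunit, changed by 0.08 ± 0.09 between 8 and 24 days. The membrane anchors Sdhc and Sdhd were highest at 16 days, and each changed by 0.16 up to 16 days and then by -0.21 ± 0.08 and -0.24 ± 0.09 up to 24 days (adjusted p = 0.0686 and 0.0611). 

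Of the 4 complex II assembly factors, Sdhaf4, which binds Sdha once its flavin is attached, was higher at 24 than at 8 days by 0.50 ± 0.09 (adjusted p = 0.00082). Its 2 array rows differed, with changes of 0.77 and 0.23. Sdhaf3, which acts on the iron-sulphur subunit, had -0.41, -0.21 and -0.40 at 24 days, against 0.00, 0.25 and 0.14 at 8 days, and fell by 0.47 ± 0.11 (adjusted p = 0.00398). Sdhaf1 and Sdhaf2 were not called.

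Complex III passes electrons from ubiquinone to cytochrome c. Its Rieske iron-sulphur protein Uqcrfs1 had -0.12, 0.00 and -0.02 at 8 days, -0.06, -0.12 and 0.04 at 16 days and 0.46, 0.19 and 0.25 at 24 days. Only the 24-day arrays stood apart, and it changed by 0.34 ± 0.09 from 8 to 24 days (adjusted p = 0.0107). The core proteins Uqcrc1 and Uqcrc2, related to mitochondrial processing peptidases, were both higher at 24 than at 8 days. Uqcrc1 had 0.46, 0.42 and 0.47 at 24 days and -0.43, -0.11 and -0.25 at 8 days, a change of 0.71 ± 0.11 (adjusted p = 0.000331). Uqcrc2 reached its change in the first step, with 0.01, 0.09 and 0.06 at 16 days, against -0.42, -0.22 and -0.41 at 8 days (0.40 ± 0.10, adjusted p = 0.0136, and 0.0525 without 8-day replicate 3).

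The small subunits of complex III went both ways. Uqcrq had 0.44, 0.40 and 0.59 at 24 days, against -0.32, 0.00 and -0.07 at 8 days, a change of 0.61 ± 0.12 (adjusted p = 0.00204). Uqcrh, the hinge protein beside cytochrome c1, had -0.31, -0.22 and -0.21 at 24 days, against 0.14, 0.23 and 0.24 at 8 days, and fell by 0.45 ± 0.08 (adjusted p = 0.000788). Uqcr11 fell by 0.46 ± 0.12 (adjusted p = 0.00951), and Uqcrb and Uqcr10 were not called in any comparison.

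**Figure D4:**
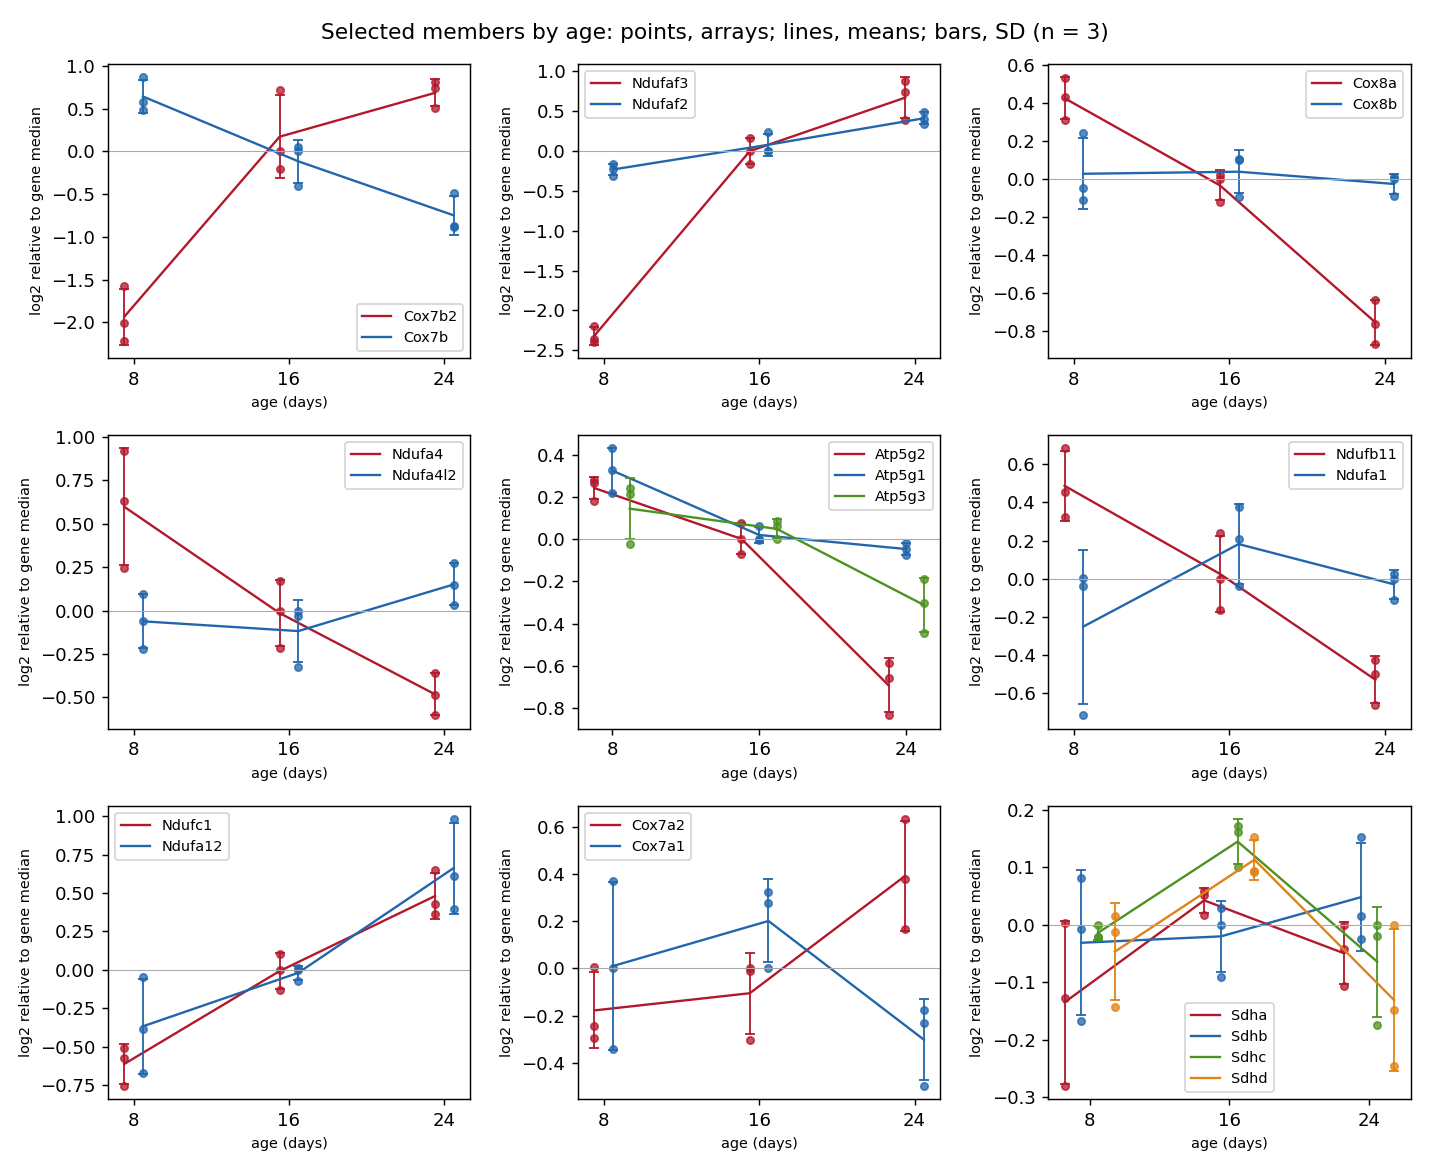
Values of selected members by age (log2 relative to the gene's median array; points, arrays; lines, age means; bars, SD, n = 3), with related genes in 1 panel. Cox7b2 is higher and Cox7b lower at 24 than at 8 days, Cox7a2 is higher while the 24-day arrays of Cox7a1 overlap those of 8 days, the c-subunit genes Atp5g1, Atp5g2 and Atp5g3 are all lower at 24 than at 8 days, and the arrays of the 4 complex II subunits stay between -0.28 and 0.17.

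Complex IV is the terminal oxidase, and several of its nuclear subunits come as isoforms. Cox7b2, the testis isoform of subunit VIIb, and Cox7b, the isoform of other tissues, showed the largest contrast. Cox7b2 had -2.22, -1.58 and -2.01 at 8 days, 0.00, 0.72 and -0.20 at 16 days and 0.51, 0.81 and 0.74 at 24 days. The 8-day arrays lay below all others and the 16- and 24-day arrays overlapped, and the change was 2.11 ± 0.23 from 8 to 16 days (adjusted p = 0.000153) and 0.51 ± 0.23 from 16 to 24 days (adjusted p = 0.114). Cox7b had 0.57, 0.86 and 0.49 at 8 days, 0.00, -0.40 and 0.05 at 16 days and -0.87, -0.49 and -0.88 at 24 days, with no overlap between ages. It fell by 1.39 ± 0.16 between 8 and 24 days (adjusted p = 4.84e-05), a 2.62-fold decrease, while Cox7b2 was 6.14-fold higher at 24 than at 8 days (adjusted p = 9.21e-06).

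Subunit VIIa has isoforms too. Cox7a2, the isoform of most tissues, had 0.17, 0.63 and 0.38 at 24 days and -0.30, -0.24 and 0.01 at 8 days, without overlap, and changed by 0.57 ± 0.14 (adjusted p = 0.00602). Cox7a1, the heart and muscle isoform, had -0.50, -0.18 and -0.23 at 24 days, 0.33, 0.00 and 0.28 at 16 days and -0.34, 0.37 and 0.00 at 8 days. Its 24-day arrays lay below the 16-day arrays but overlapped those of 8 days, and its change of -0.50 ± 0.17 from 16 to 24 days (adjusted p = 0.0495) was lost without any 1 of 6 arrays. Cox7a2l, which helps join complexes III and IV, was not called (-0.20 ± 0.09 between 24 and 8 days, adjusted p = 0.0961). The RefSeq gene of Cox7a2 overlaps Tmem30a and Gm51685, and whether the array tells their strands apart was not tested.

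Cox8a, the general isoform of subunit VIII, fell in both steps. It had 0.53, 0.43 and 0.31 at 8 days, 0.02, -0.12 and 0.00 at 16 days and -0.87, -0.76 and -0.63 at 24 days, with no overlap between ages. The changes were -0.46 ± 0.10 (adjusted p = 0.00647) and -0.72 ± 0.10 (adjusted p = 0.0006), and the whole fall was 2.26-fold. Cox8b, the heart and muscle isoform, had 0.00, 0.01 and -0.09 at 24 days and 0.24, -0.05 and -0.11 at 8 days and was not called. Ndufa4 had -0.60, -0.36 and -0.49 at 24 days, against 0.24, 0.92 and 0.63 at 8 days, without overlap, and fell by 1.08 ± 0.17 (adjusted p = 0.000314). Its relative Ndufa4l2, known from low oxygen, was not called (0.21 ± 0.12).

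Of the remaining complex IV subunits, Cox5a and Cox6c were called between 24 and 8 days. Cox5a had 0.41, 0.28 and 0.46 at 24 days, against -0.41, -0.22 and -0.14 at 8 days, a change of 0.64 ± 0.09 (adjusted p = 0.000243). Its counterpart Cox5b was not called (0.14 ± 0.11), nor were Cox4i1 (0.13 ± 0.11) and its isoform Cox4i2 of lung and low oxygen (-0.16 ± 0.11). Cox6a1 and its muscle isoform Cox6a2 changed by -0.03 ± 0.11 and -0.17 ± 0.14 and were not called. Cox6c was called higher by 0.20 ± 0.07 (adjusted p = 0.0442).

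The promoters of Cox7b2, Cox7b and Cox8a are shown because these are the complex IV genes with the largest changes (RefSeq, GRCm38.p6, 5′ to 3′ on the gene's strand, from 250 bases before to 50 after the annotated start). Cox7b2 lies on the minus strand at chr5:71548156-71548455, Cox7b on the plus strand of chromosome X at chrX:106015450-106015749 and Cox8a on the minus strand at chr19:7217567-7217866. Capitals mark matches to CCGGAAG, an ETS motif bound by GABP, which reads CTTCCGG on the other strand. Cox8a holds 2 of them, which start 5 bases before and 32 bases after the annotated start. In the windows of Cox7b2 and Cox7b, neither this motif nor those of NRF1, CRE or YY1 searched here occur, while the CCAAT box, which is not capitalised, occurs 3 times in Cox7b2, 2 times in Cox7b and 1 time in Cox8a.
Cox7b2: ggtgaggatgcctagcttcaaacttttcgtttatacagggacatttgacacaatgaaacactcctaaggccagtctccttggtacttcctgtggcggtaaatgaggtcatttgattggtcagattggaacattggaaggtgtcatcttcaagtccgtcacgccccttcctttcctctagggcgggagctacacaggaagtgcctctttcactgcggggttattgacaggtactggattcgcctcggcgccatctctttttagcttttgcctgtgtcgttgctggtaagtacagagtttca
Cox7b: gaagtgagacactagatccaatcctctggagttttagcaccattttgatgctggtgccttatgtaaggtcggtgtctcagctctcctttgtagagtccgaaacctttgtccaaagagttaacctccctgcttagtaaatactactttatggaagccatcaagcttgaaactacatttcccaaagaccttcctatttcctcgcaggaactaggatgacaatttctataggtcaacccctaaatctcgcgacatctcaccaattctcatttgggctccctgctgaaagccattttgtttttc
Cox8a: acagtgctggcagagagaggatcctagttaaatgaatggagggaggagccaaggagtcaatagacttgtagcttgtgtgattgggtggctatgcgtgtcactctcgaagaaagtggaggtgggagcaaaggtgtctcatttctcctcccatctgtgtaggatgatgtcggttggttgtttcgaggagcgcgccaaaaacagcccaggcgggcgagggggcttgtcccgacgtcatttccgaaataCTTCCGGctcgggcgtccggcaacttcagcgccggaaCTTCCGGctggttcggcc

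The ATP synthase has a catalytic head and a ring of c subunits in the membrane, joined by a central stalk. The subunits of the catalytic head, Atp5a1 and Atp5b, were not called in any comparison, with changes of -0.20 ± 0.09 (adjusted p = 0.0894) and 0.11 ± 0.08 between 24 and 8 days. Atp5c1, the central stalk, had -0.16, -0.17 and -0.22 at 24 days, against 0.15, 0.37 and 0.23 at 8 days, and fell by 0.43 ± 0.10 (adjusted p = 0.00443). All 3 genes of the c subunit, which encode the same mature protein with different import signals, were lower at 24 than at 8 days.

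Atp5g1 was called lower in the first step, and Atp5g2 and Atp5g3 in the second. Atp5g2 had 0.18, 0.27 and 0.28 at 8 days, 0.08, -0.07 and 0.00 at 16 days and -0.84, -0.66 and -0.59 at 24 days. No 2 ages overlapped, and its change was -0.24 ± 0.09 up to 16 days (adjusted p = 0.0846) and -0.70 ± 0.09 from 16 to 24 days (adjusted p = 0.000535). Atp5g3 had -0.02, 0.22 and 0.24 at 8 days, 0.09, 0.06 and 0.00 at 16 days and -0.44, -0.19 and -0.30 at 24 days, and fell by 0.46 ± 0.10 between 8 and 24 days (adjusted p = 0.00319). Atp5g1 was called lower at 16 days, with 0.06, 0.00 and 0.00, against 0.33, 0.43 and 0.22 at 8 days. That change was -0.31 ± 0.08 (adjusted p = 0.0211, up to 0.0785 when 1 of 4 arrays was left out). Its change from 16 to 24 days was -0.07 ± 0.08. Whether these genes differ from each other in either step was not tested.

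Among the other ATP synthase subunits, Atp5mpl, a small proteolipid of the membrane part, had -0.47, -0.22 and -0.60 at 24 days, against 0.16, 0.31 and 0.22 at 8 days, and fell by 0.66 ± 0.14 (adjusted p = 0.00281). The one subunit that was higher was Atp5j, coupling factor 6 of the peripheral stalk, with 0.31, 0.15 and 0.32 at 24 days and -0.12, -0.02 and -0.24 at 8 days (0.39 ± 0.09, adjusted p = 0.00402). Atp5o, the stalk subunit that confers oligomycin sensitivity, was lower at 16 than at 8 days by 0.24 on the log2 scale (adjusted p = 0.0457, lost without any 1 of 8 arrays) and was not called between 24 and 8 days. The 8 other subunits, among them Atp5k and Atp5l, which join synthase dimers, were called in no comparison, with changes of -0.24 to 0.25 between 24 and 8 days.

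The promoter of Atp5g2 is shown as that of the ATP synthase gene with the largest change (RefSeq, GRCm38.p6, chr15:102670998-102671297, minus strand, 5′ to 3′). Capitals mark matches to GCATGCGC, a motif of nuclear respiratory factor NRF1, on both strands, which overlap and start 42 and 40 bases before the annotated start.
Atp5g2: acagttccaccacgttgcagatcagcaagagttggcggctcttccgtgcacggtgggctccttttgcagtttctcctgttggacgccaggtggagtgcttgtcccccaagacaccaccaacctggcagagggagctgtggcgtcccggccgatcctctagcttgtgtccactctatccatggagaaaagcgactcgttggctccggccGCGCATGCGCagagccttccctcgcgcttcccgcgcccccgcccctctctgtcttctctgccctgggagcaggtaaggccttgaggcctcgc

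Members on chromosome X were Cox7b, Ndufb11 and Ndufa1. Ndufb11, a membrane arm subunit of complex I, had 0.32, 0.68 and 0.46 at 8 days, 0.00, -0.16 and 0.24 at 16 days and -0.66, -0.43 and -0.50 at 24 days. No 2 ages overlapped, and it fell by 1.02 ± 0.13 between 8 and 24 days (adjusted p = 9.63e-05). Ndufa1, another small membrane arm subunit, had -0.11, 0.00 and 0.03 at 24 days and -0.72, 0.00 and -0.04 at 8 days, which overlapped, and was not called (0.22 ± 0.18). Of all 739 genes of chromosome X measured, 91 were higher and 403 were lower at 24 than at 8 days, with a median change of -0.43. These are 12.3% and 54.5%, against 19.2% and 35.2% of all genes. Between 16 and 8 days 21 (2.84%) were higher and 214 (29.0%) were lower, against 10.4% and 14.3% of all genes. Ndufb11 overlaps Rbm10 and Ndufa1 overlaps Rnf113a1 in RefSeq.

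Cytochrome c, the carrier between complexes III and IV, also has a testis isoform. Cyct, which encodes it, had -2.27, -1.66 and -2.00 at 8 days, -0.62, 0.00 and 0.00 at 16 days and 0.31, 0.74 and 0.06 at 24 days. It changed by 1.77 ± 0.23 from 8 to 16 days (adjusted p = 0.000397) and by 2.35 ± 0.23 from 8 to 24 days (adjusted p = 1.52e-05), in the same step as Cox7b2. The somatic cytochrome c gene Cycs fell by 0.42 ± 0.13 (adjusted p = 0.0171), and Cyc1, the cytochrome c1 of complex III, fell by 0.38 ± 0.12 (adjusted p = 0.019). Of the subunits encoded in mitochondrial DNA, ND3 and COX2 were measured and neither was called by limma in any comparison or had an unadjusted p under 0.05 (-0.07 ± 0.12 and 0.18 ± 0.10 between 24 and 8 days).

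Assembly factors with other symbols were taken from a list of the pathway. Of 30 measured, 3 were higher and 11 were lower at 24 than at 8 days, with a median change of -0.03. These are 10.0% and 36.7% of the list, against 19.2% and 35.2% of all genes. Lyrm7, a chaperone of the Rieske protein, changed most, with 1.41, 1.07 and 1.11 at 24 days, against -0.41, -0.04 and -0.77 at 8 days (1.60 ± 0.18, adjusted p = 4.16e-05). Coa7, a complex IV assembly factor, fell by 1.08 ± 0.17 (adjusted p = 0.000375). Uqcc2, which assembles complex III, changed by 0.66 ± 0.11 (adjusted p = 0.00048).

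RefSeq promoter windows were found for 75 of the 90 members and were searched on both strands for motifs known from respiratory genes. The NRF1 motif GCATGCGC was in 16.0% of these members and in 4.29% of the 15561 measured genes with a window, and the ETS motif CCGGAAG in 26.7% and 13.6%. The YY1 motif AAGATGGC was in 13.3% of the members and 3.77% of all, the CRE TGACGTCA in 5.33% and 2.73%, and the CCAAT box, CCAAT, in 41.3% and 41.7%. Of the 22 members with windows that were higher at 24 than at 8 days, 2 held the NRF1, 2 the ETS and 5 the YY1 motif. Of the 17 that were lower at 24 days, 5 held the NRF1, 5 the ETS and 1 the YY1 motif. Of the 36 not called between these ages, 5 held the NRF1, 13 the ETS and 4 the YY1 motif. The CCAAT box was in 4 of the 22, 8 of the 17 and 19 of the 36. The NRF1, ETS and CRE strings contain CG. The windows of the members held a median of 20 CG pairs, against 15 for all measured genes. The motifs can share bases with one another, these shares were not tested, and a match is a string of letters, not a binding site.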

How the data were processed

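RNA of whole testis was measured on 9 Affymetrix arrays, 3 at each of 8, 16 and 24 days. The deposited log2 values were centred by row, as the values themselves show: the 9 arrays of a row have median 0 once blank cells are read as 0. The base of the logarithm is taken as 2, and the software, background correction and normalization that the authors used before depositing these log2 values are not stated in the labels or headers. Centred values keep no signal intensity, so no probe could be filtered as dim.

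Of 28815 rows, the 21780 with exactly 1 gene symbol in the platform's annotation were averaged into 19935 genes, with blank cells read as 0. Among the 18 members with several rows, only Sdhaf4 had rows whose changes between 24 and 8 days were far apart. One mean per age was fitted to all 9 arrays with limma 3.58.1 (lmFit and eBayes, R 4.3.3), with 6 residual and 3.82 prior degrees of freedom and no covariate. The contrasts were 16 minus 8, 24 minus 16 and 24 minus 8 days and the second step minus the first, with Benjamini-Hochberg adjustment over all 19935 genes and a threshold of 0.05. These comparisons share arrays, so their calls are not independent. The fit was tested on simulated data. Tables and figures used Python 3.11.15, pandas 2.3.3 and matplotlib 3.10.9.

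The members, gene lists and markers were chosen with earlier results of these data known, so that no list was independent of them. Genes were named by rule: the 3 subunits per complex with the largest called change in each step, all isoforms and paralogs, X-linked members, all complex II subunits, core subunits and called assembly factors, and up to 3 genes of each other list. Members named with values beyond these were chosen after their values were seen. Alternatives were all-gene medians set to 0, blank cells left missing, rows with 1 blank cell, the row with the largest range, weighted arrays, fits of 2 ages without the other one, robust eBayes, a replicate block, an olfactory receptor covariate, leaving out the 2 arrays that stood apart, and leaving out each array. Between same-numbered arrays of different ages, deviations from the age means had correlations of -0.46 to 0.20. Differently numbered arrays were not compared, so these values cannot show whether the numbers pair the arrays. The main fit took the arrays as unpaired. Promoters are RefSeq windows of 300 bases on GRCm38.p6.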

Additional observations from a re-analysis of the deposited data

How the results depend on the processing

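Of 65 calls of named members, 28 were kept under every alternative. No named result changed sign where the main fit or the alternative called it. Sign changes of results called in neither were not counted, and the alternatives reuse the same arrays. The shares of all genes called under each alternative were not counted either. The counts of members below therefore cannot be set against all genes. With all-gene medians set to 0, there were 4 lower calls between 16 and 8 days and 5 between 24 and 16 days, and the medians of complexes I to V were 0.21, -0.064, 0.28, 0.061 and 0.028 between 24 and 16 days and 0.32, 0.13, 0.40, 0.079 and -0.031 between 24 and 8 days. With blank cells left missing, 3 members were lower between 16 and 8 days, and 9 were higher and 7 lower between 24 and 16 days. Rows with 1 blank cell gave medians of 0.14 for complex I and -0.092 for complex II between 24 and 16 days, 0.079 for complex II between 24 and 8 days, and 2 members whose steps differed. Array weights gave 0.10 for complex II between 16 and 8 days, 0.089 for complex I between 24 and 16 days, 0.012 for complex IV between 24 and 8 days, and 29 lower members between 24 and 8 days. With only the 6 arrays of the 2 ages, 3 members were lower between 16 and 8 days. The olfactory receptor covariate gave 12 higher members between 16 and 8 days, 19 lower between 24 and 16 days, 3 whose steps differed, medians of 0.04, 0.12 and -0.10 for complexes I, III and V between 24 and 16 days, and 0.030 for complex IV between 24 and 8 days. Without the 2 arrays that stood apart, the medians were 0.091 for complex I and -0.042 for complex IV between 24 and 16 days and 0.094 for complex I between 24 and 8 days. The cause of these shifts was not tested.

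A replicate block on the 6 numbered arrays gave 3 higher and 1 lower member between 16 and 8 days, 0 higher and 2 lower between 24 and 16 days, 16 higher and 9 lower between 24 and 8 days, and 2 whose steps differed, from fewer arrays than the unblocked fit of limma.

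Leaving out 1 array at a time gave 4 to 7 higher and 3 to 11 lower members between 16 and 8 days, 3 to 17 and 3 to 14 between 24 and 16 days, 21 to 26 and 15 to 23 between 24 and 8 days, and 1 to 2 whose steps differed. The medians of complexes I to V ranged over 0.011 to 0.17, 0.13 to 0.17, -0.019 to 0.051, -0.027 to 0.047 and -0.12 to -0.054 between 16 and 8 days. Between 24 and 16 days they ranged over 0.078 to 0.14, -0.17 to -0.11, 0.13 to 0.22, -0.058 to -0.0042 and -0.065 to -0.038. Between 24 and 8 days they ranged over 0.094 to 0.30, -0.023 to 0.050, 0.22 to 0.34, -0.080 to -0.0073 and -0.21 to -0.075.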

Other observations

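A citric acid cycle list of 17 genes also held the pyruvate dehydrogenase gene Pdha2. Of these, 8 (47.1%) were higher and 8 (47.1%) were lower at 24 than at 8 days, against 19.2% and 35.2% of all genes. Pdha2, the testis isoform of a pyruvate dehydrogenase subunit, had -2.13, -2.07 and -2.02 at 8 days, 0.00, 0.34 and 0.00 at 16 days and 0.65, 0.89 and 0.64 at 24 days, a change of 2.80 ± 0.11 from 8 to 24 days (limma adjusted p = 6.35e-08). Sucla2, a subunit of succinyl-CoA ligase, changed by 1.62 ± 0.11 (adjusted p = 1.13e-06), and Idh2, the mitochondrial NADP-dependent isocitrate dehydrogenase, fell by 1.49 ± 0.15 (adjusted p = 1.91e-05).

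Of 77 mitochondrial ribosome genes, 15 (19.5%) were higher, close to the 19.2% of all genes, and 21 (27.3%) were lower, against 35.2% of all genes, with Mrpl23 at -1.13 ± 0.22 and Mrpl39 at 1.07 ± 0.10. Of 16 regulators of mitochondrial biogenesis, 1 (6.25%) was higher and 6 (37.5%) were lower, the second share close to that of all genes. The higher one was Tfb1m, a methyltransferase of mitochondrial ribosomal RNA, at 1.02 ± 0.15 (adjusted p = 0.000303). Pprc1, a coactivator related to PGC-1, fell by 1.23 ± 0.16 (adjusted p = 9.18e-05), and Tfam, which packages mitochondrial DNA, fell by 0.75 ± 0.25 (adjusted p = 0.0266).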
